A study of Homo sapiens with 6 samples.

Results

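Genes of glycolysis and genes known to be induced by low oxygen were followed in HCC827OR, an osimertinib-resistant derivative of the human lung adenocarcinoma cell line HCC827, and in the parental HCC827 cells. The members were fixed by name, as 27 enzymes of glucose breakdown and hypoxia-inducible genes, and the 13 found among the 4439 genes of the deposited table were HK1, PFKP, PFKFB3, ALDOA, ENO2, PKM, LDHA, CA9, CA12, ADM, BNIP3, EGLN3 and P4HA1. The other 14, HK2, GPI, PFKL, PFKFB4, ALDOC, TPI1, PGK1, PGAM1, ENO1, PDK1, VEGFA, NDRG1, ANKRD37 and KDM3A, are not analysed here. RNA sequencing covered 3 libraries of HCC827OR and 3 of HCC827. HCC827 carries an activating mutation in the receptor gene EGFR, and osimertinib inhibits the mutant receptor. HCC827OR was selected from it by raising osimertinib through 10, 50, 100 and 500 nM and then 1 and 5 µM, with 1 month at each step. HCC827OR is a single selected line, and the labels state neither the drug content of the medium nor the cell density or oxygen at harvest. Whether the 3 libraries of a line stem from cultures grown apart is not stated, so each p-value refers to the scatter of these libraries alone, and that scatter may be technical. In bulk RNA a change in the share of cells using a gene and a change in RNA per cell cannot be told apart.

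Glycolysis converts glucose to pyruvate in the cytosol. Hexokinase and phosphofructokinase commit glucose to the pathway, pyruvate kinase closes it, and lactate dehydrogenase turns pyruvate into lactate. In low oxygen the transcription factor HIF, a dimer of an oxygen-labile alpha subunit and ARNT, raises many glycolytic genes together with genes of pH control, blood vessel signals, mitophagy and collagen modification. Prolyl hydroxylases of the EGLN family mark the alpha subunit for destruction when oxygen is present, and EGLN3 is itself a HIF target, so that it normally follows the other targets. Glycolytic genes also respond to growth factor signalling, including that of EGFR in lung cancer cells.

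In HCC827OR 12 of the 13 members rose and EGLN3 fell (limma on log2(value + 1), Benjamini-Hochberg adjusted p below 0.05). The 3 HCC827OR libraries all lay above the 3 HCC827 libraries in those 12 members and below them in EGLN3, an arrangement that 52.1% of all tested genes showed upwards and 44.8% downwards. HCC827 library 3 lay above HCC827 libraries 1 and 2 in all 13, as it did in 53.2% of all tested genes. For 12 members that placed library 3 between the other parental libraries and HCC827OR, while for EGLN3 it lay on the far side of them from HCC827OR. The deposited table holds only genes that its authors had called different between the lines, so a call is close to given: 97.5% of the 3332 tested genes passed, 52.5% as higher and 45.0% as lower. The members' calls are therefore a description and no independent evidence. The filter on low values, a value of at least 1 in 3 libraries, left 13 members. CA9 passed it only through its HCC827OR libraries and had to be higher there, so its place among the 12 carries no information. CA12 had only 1 parental library at the minimum, so it too was tested only because of its HCC827OR libraries. The members' median log2 difference between the lines was 1.42, against 0.74 over all tested genes. The second value depends on the filter, being 0.32 with no filter and -0.69 with a value of at least 5 required in 3 libraries. It also mixes genes called higher with genes called lower, while 12 of the 13 members rose. It therefore does not show how far genes that rose usually differed. Against HCC827 library 3 alone the medians were 0.73 for the members and 0.53 for all tested genes. In the sum over the 13 members the HCC827OR libraries had 8305, 8369 and 8321, against 2459, 2257 and 5848 in HCC827 libraries 1 to 3, a sum carried mainly by ALDOA, PKM and LDHA. The unit of the deposited values is not named, so values are compared within a gene and not between genes.

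**Figure D1:**
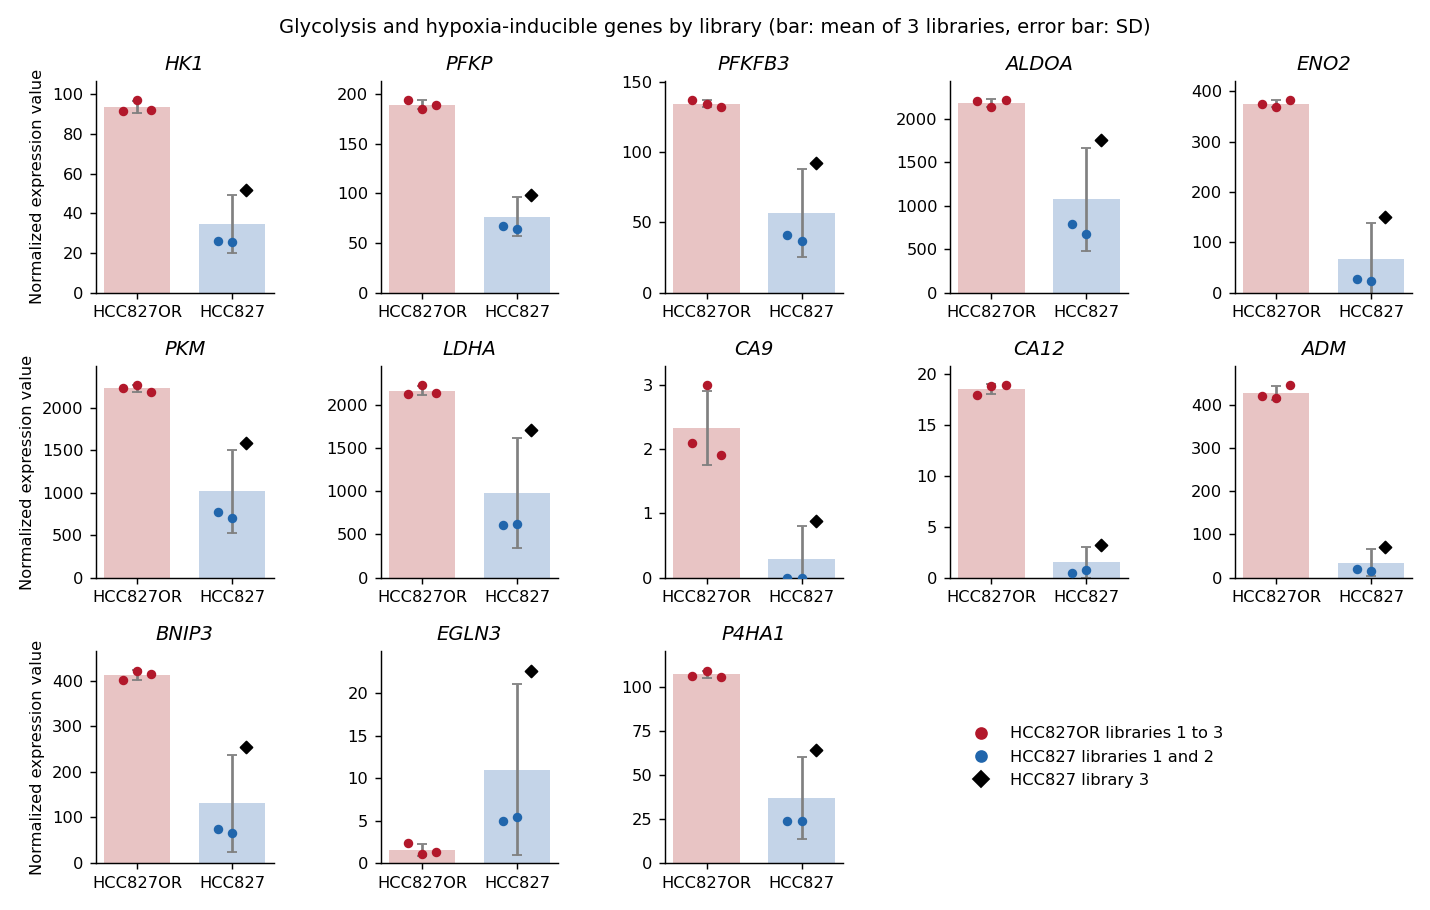
Normalized expression value (vertical axis, linear, unit not named) of each member in the 3 HCC827OR libraries and the 3 HCC827 libraries, with bars at the mean and error bars of 1 SD. The black diamond, HCC827 library 3, is the highest parental point in all 13 panels, and EGLN3 is the panel in which HCC827OR is the lower group.

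Of the whole series the following touches these results. Over the table the values summed to between 149956 and 152065 in HCC827OR libraries and to 115790 to 145175 in HCC827 libraries, library 3 having the largest parental sum, and read depth is unknown. Of 10 markers of lung adenocarcinoma and epithelium 7 were in the table. Their summed value was 2046 to 2080 in HCC827OR against 6131 to 7638 in HCC827, lowest in library 3 mainly through KRT7. NKX2-1 and NAPSA, which define lung adenocarcinoma of the alveolar type, were at or below 2.37 in HCC827OR and between 12.19 and 148.38 in HCC827. Of 7 fibroblast markers 4 were in the table, with sums of 27.4 to 31.1 in HCC827OR, nearly all of it LUM, and 0.43 to 0.80 in HCC827. Of 4 endothelial markers 2 were in the table, with sums of 0.95 to 1.56 in HCC827OR and 4.95 to 10.2 in HCC827, highest in library 3 through PECAM1, while VWF was at or below 0.1 in every library. None of the retinal or leukocyte markers was in the table, although the extraction text speaks of retinas. Their part in the results below was not tested.

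Promoters are shown for the 4 members whose values in HCC827 library 3 lay farthest above those in libraries 1 and 2 on the log2(value + 1) scale (by the plain ratio CA12 would be among them), because genes that move together under low oxygen often carry the core of the hypoxia response element near their start. The windows are the 250 bases before a RefSeq start (GRCh38.p14), written 5′ to 3′ on the strand of the gene, with capitals for the letters ACGTG or GCGTG on either strand. They lie at chr12:6914330-6914579 on the plus strand for ENO2, chr11:10304823-10305072 on the plus strand for ADM, chr14:33951075-33951324 on the minus strand for EGLN3 and chr10:131981924-131982173 on the minus strand for BNIP3.
ENO2: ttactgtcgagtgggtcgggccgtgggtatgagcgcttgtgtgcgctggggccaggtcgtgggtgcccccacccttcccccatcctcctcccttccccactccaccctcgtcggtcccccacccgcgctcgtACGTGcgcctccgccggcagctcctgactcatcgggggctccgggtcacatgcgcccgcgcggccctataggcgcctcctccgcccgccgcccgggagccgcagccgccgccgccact
ADM: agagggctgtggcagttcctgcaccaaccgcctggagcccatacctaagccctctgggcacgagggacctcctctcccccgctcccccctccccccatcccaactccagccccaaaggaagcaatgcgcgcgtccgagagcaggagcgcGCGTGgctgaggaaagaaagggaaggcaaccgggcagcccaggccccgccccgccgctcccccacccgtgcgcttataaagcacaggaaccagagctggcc
EGLN3: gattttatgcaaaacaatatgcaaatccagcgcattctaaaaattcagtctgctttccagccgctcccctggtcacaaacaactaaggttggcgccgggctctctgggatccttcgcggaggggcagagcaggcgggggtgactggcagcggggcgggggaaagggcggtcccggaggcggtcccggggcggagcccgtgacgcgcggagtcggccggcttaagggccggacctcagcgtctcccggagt
BNIP3: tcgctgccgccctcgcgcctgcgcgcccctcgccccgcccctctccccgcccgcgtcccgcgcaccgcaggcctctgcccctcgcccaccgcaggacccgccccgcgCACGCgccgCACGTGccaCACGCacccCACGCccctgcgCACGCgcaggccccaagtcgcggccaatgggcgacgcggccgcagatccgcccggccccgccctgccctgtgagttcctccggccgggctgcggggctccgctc
The starts used here are those of RefSeq and differ from the ends of the GENCODE gene spans given below. The windows lie wholly (ENO2, ADM and EGLN3) or partly (BNIP3) inside those spans. ENO2 held ACGTG at 118 to 114 bases before its start. ADM held GCGTG at 101 to 97 bases before its start. BNIP3 held ACGTG on both strands in overlap, as CACGTG, with the plus-strand copy at 133 to 129 bases before the start, and it held GCGTG on the minus strand 4 times between 143 and 100 bases before the start. EGLN3 held neither motif in this window, which says nothing of elements elsewhere in the gene. Among the 26 windows of the 13 members 38.5% held ACGTG on either strand, against 18.5% of all 35116 windows. For GCGTG the order was the other way, at 26.9% of the members' windows against 32.2% of all windows. At least 1 of the motifs ACGTG and GCGTG was held by 61.5%, against 43.2%. Counted per gene, 11 of 13 members had either motif in at least 1 window, against 47.4% of all 27305 genes. The exceptions were EGLN3 and PKM. The members had 26 windows for 13 genes, against 35116 for all 27305, so a member had more chances of a match. The members were listed by name as glycolytic and hypoxia-inducible genes, so these shares describe that list and are no result of these data. A match is a run of letters and not a measured binding site.

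Of the genes that commit glucose to the pathway, 1 of 3 listed for its phosphorylation and isomerisation was in the table, HK1, and 2 of 4 listed for the phosphofructokinase step, PFKP and PFKFB3. These rose. Hexokinase 1, encoded by HK1 (ENSG00000156515; chromosome 10, 69269984 to 69401884 in GRCh38), phosphorylates glucose and is the broadly expressed hexokinase of mitochondrial surfaces. HK1 had 91.34, 96.94 and 92.13 in HCC827OR libraries, against 26.23, 25.71 and 51.54 in HCC827 libraries. The lines did not overlap, and library 3 held 1.98 times the mean of libraries 1 and 2. HK1 averaged 93.5 ± 3.03 in HCC827OR and 34.5 ± 14.8 in HCC827 (SD, n = 3 each), a log2 difference of 1.49 (SE 0.262, limma adjusted p = 0.0011). PFKP, the platelet-type phosphofructokinase (ENSG00000067057; chromosome 10, 3066333 to 3137712), had 193.63, 184.85 and 188.76 in HCC827OR, against 66.84, 63.68 and 98.74 in HCC827. Its log2 difference was 1.32 (SE 0.179, limma adjusted p = 2.96e-04), and library 3 was 1.51 times the mean of libraries 1 and 2, the smallest such ratio of the 12 members with values above 0 in libraries 1 and 2. PFKFB3 (ENSG00000170525; chromosome 10, 6144934 to 6254644) makes fructose 2,6-bisphosphate, the main activator of phosphofructokinase. It had 136.69, 133.76 and 131.93 in HCC827OR, against 40.7, 36.89 and 92.41 in HCC827, a log2 difference of 1.35 (SE 0.327, limma adjusted p = 0.0051). Here library 3 stood nearer to HCC827OR than to the other parental libraries.

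Of 8 listed genes of lower glycolysis 3 were in the table, ALDOA, ENO2 and PKM, and these 3 rose. ALDOA, the aldolase of muscle and most tumours (ENSG00000149925; chromosome 16, 30064164 to 30070457), had 2210.06, 2132.82 and 2215.02 in HCC827OR, against 793.62, 678.73 and 1754.47 in HCC827. Library 3 was 2.38 times the mean of libraries 1 and 2, and HCC827OR was 1.25 times library 3, the smallest such ratio of the 12 members that rose. The log2 difference of ALDOA between the lines was 1.15 (SE 0.346, limma adjusted p = 0.0136), and the adjusted p was 0.0502 without HCC827 library 1 (range over the alternatives 1.13e-06 to 0.122). ENO2, the neuron-type enolase that many cells induce in hypoxia (ENSG00000111674; chromosome 12, 6913745 to 6923698), had 373.97, 369 and 381.85 in HCC827OR, against 27.05, 23.13 and 149.26 in HCC827. It was 5.64-fold higher over all libraries and 14.9-fold higher without HCC827 library 3 (log2 difference 3.01, SE 0.649, limma adjusted p = 0.00294). ENO2 was the member in which library 3 lay farthest from libraries 1 and 2, at 5.95 times their mean. PKM, the pyruvate kinase of most adult tissues and tumours (ENSG00000067225; chromosome 15, 72199029 to 72231822), had 2226.99, 2259.54 and 2186 in HCC827OR, against 777.03, 698.46 and 1578.81 in HCC827. The lines stayed apart, with a log2 difference of 1.23 (SE 0.307, limma adjusted p = 0.00604). The values are per gene and do not separate the M1 and M2 forms of pyruvate kinase.

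LDHA, which makes lactate from pyruvate (ENSG00000134333; chromosome 11, 18394388 to 18408425), had 2120.91, 2222.07 and 2138.94 in HCC827OR, against 604.93, 620.18 and 1707.72 in HCC827. HCC827OR was 1.27 times library 3, and library 3 was 2.79 times the mean of libraries 1 and 2. The gene was 2.21-fold higher over all libraries and 3.53-fold higher without library 3 (log2 difference 1.32, SE 0.395, limma adjusted p = 0.0133). ALDOA, PKM and LDHA were also the members whose calls depended on scaling. With each library scaled to a common median ratio over the table their log2 differences were 0.48, 0.56 and 0.65 and did not pass (limma adjusted p = 0.122, 0.052 and 0.086; over the alternatives PKM ranged from 4.66e-07 to 0.052 and LDHA from 1.28e-07 to 0.086), and 9 of 13 members rose. That scaling, which takes the picked genes of the table to be balanced between the lines, lowered the median of all tested genes by 0.42. Relative to that median, which mixes genes of both directions, the members' median was 0.51 higher, against 0.67 higher in the values as deposited.

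Carbonic anhydrases of the cell surface, which handle the acid made by glycolysis, were higher in HCC827OR. CA9 (ENSG00000107159; chromosome 9, 35673856 to 35681159), a widely used marker of hypoxic tumour cells, had 2.09, 2.99 and 1.91 in HCC827OR. In HCC827 it was listed at 0 in libraries 1 and 2 and at 0.89 in library 3. CA9 reached the filter through its HCC827OR libraries alone, so its direction was fixed by the filter and no test is given for it. No fold is given against libraries listed at 0. CA12 (ENSG00000074410; chromosome 15, 63321378 to 63382161) had 17.92, 18.8 and 18.88 in HCC827OR, against 0.47, 0.79 and 3.24 in HCC827. It was 12.4-fold higher over all libraries and 29.4-fold higher without library 3, with a log2 difference of 3.13 (SE 0.377, limma adjusted p = 1.71e-04). Of its parental libraries only library 3 reached the minimum of the filter, so CA12 was tested only because of its HCC827OR libraries. The p-value of CA12 is therefore no independent evidence of a rise. In both genes library 3 was the highest parental library and lay below every HCC827OR library.

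ADM, the precursor of the vasodilator peptide adrenomedullin (ENSG00000148926; chromosome 11, 10304680 to 10307397), had the largest difference of the 13 members on the log2(value + 1) scale. By the ratio of means CA12 stood slightly higher, at 12.4 against 12.2. ADM had 420.48, 414.98 and 444.33 in HCC827OR, against 19.62, 14.76 and 70.49 in HCC827. Library 3 was 4.1 times the mean of libraries 1 and 2 and still far below HCC827OR. The log2 difference of ADM was 3.90 (SE 0.519, limma adjusted p = 2.75e-04), and the ratio of means was 12.2 with library 3 and 24.8 without it. BNIP3, a mitochondrial protein that drives mitophagy (ENSG00000176171; chromosome 10, 131966455 to 131982013), had 402.03, 422.95 and 414.54 in HCC827OR, against 74.16, 65.97 and 254.14 in HCC827. It was 3.14-fold higher over all libraries and 5.9-fold higher without library 3 (log2 difference 1.93, SE 0.479, limma adjusted p = 0.00579). Its antisense neighbour AL162274.1, which overlaps it, had 3.12, 3.53 and 3.92 in HCC827OR, against 0.59, 0.43 and 2.12 in HCC827, with library 3 again the highest parental library and below HCC827OR. Whether counting used strand is not stated, and reads of the pair cannot be told apart. ALDOA, CA9 and ENO2 also overlap annotated protein-coding genes (AC093512.2, ARHGEF39 and LRRC23), which are not analysed here, and their values carry the same uncertainty. The pseudogene BNIP3P4, which resembles BNIP3 and can share its reads, went the other way, with 7.16, 6.3 and 7.03 in HCC827OR against 12.11, 12.65 and 17.3 in HCC827.

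The members that use oxygen as a substrate split. P4HA1, the catalytic subunit of collagen prolyl hydroxylase (ENSG00000122884; chromosome 10, 73007217 to 73096974), had 106.36, 109.2 and 105.43 in HCC827OR, against 23.66, 23.59 and 63.9 in HCC827. It was 2.89-fold higher over all libraries and 4.53-fold higher without library 3 (log2 difference 1.67, SE 0.366, limma adjusted p = 0.00322). EGLN3 (ENSG00000129521; chromosome 14, 33924231 to 34462774) had 2.36, 1.01 and 1.25 in HCC827OR, against 4.94, 5.42 and 22.71 in HCC827. It fell 7.16-fold over all libraries and 3.36-fold without library 3, which alone held 4.38 times the mean of libraries 1 and 2. Its log2 difference was -1.96 with all libraries (SE 0.535, limma adjusted p = 0.00886) and -1.32 without library 3 (SE 0.227, limma adjusted p = 8.89e-04; range over the alternatives 8.89e-04 to 0.0327). EGLN3 was thus the member in which the parental library with the higher hypoxia-inducible values and HCC827OR stood on opposite sides of libraries 1 and 2. Among all 3332 tested genes 129 (3.87%) were called and showed such an opposite placement with library 3 at least 2-fold away. The annotated span of EGLN3 overlaps SPTSSA, a subunit gene of serine palmitoyltransferase on the same strand, which had 27.37, 31.89 and 29.57 in HCC827OR, against 45.03, 52.66 and 74.8 in HCC827. Whether reads of SPTSSA transcripts entered the EGLN3 values was not tested.

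Set apart from the other parental libraries, library 3 was at least 2-fold higher than libraries 1 and 2 on the log2(value + 1) scale in 10 of 13 members, against 7.92% of all tested genes, and lower in none. Among genes called higher in HCC827OR the share was 7.49%, and among genes called lower it was 7.20%. The endothelial marker sum, named above, was also highest in library 3. The epithelial sum was lowest there mainly through KRT7, at 1137.25 against 2486.4 and 2263.72 in libraries 1 and 2. EPCAM, KRT18 and NKX2-1 were also the lowest of the parental values in library 3, while KRT19, CDH1 and NAPSA were the highest. This is a comparison of 1 library with 2 of the same line, and no test is made of it. The members' median difference was 1.39, against 0.13 over all tested genes. Libraries 1 and 2 differed from each other by a median of 0.14 in the members and 0.15 over all tested genes. With each library scaled to the same sum over the table, library 3 was at least 2-fold higher in 7 of 13 members, against 5.01% of all tested genes, and it stayed above both other libraries in all 13, against 37.9%. The 3 members under 2-fold in the deposited values were HK1, PFKP and CA9, at 0.96, 0.59 and 0.92 on the log2 scale.

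**Figure D2:**
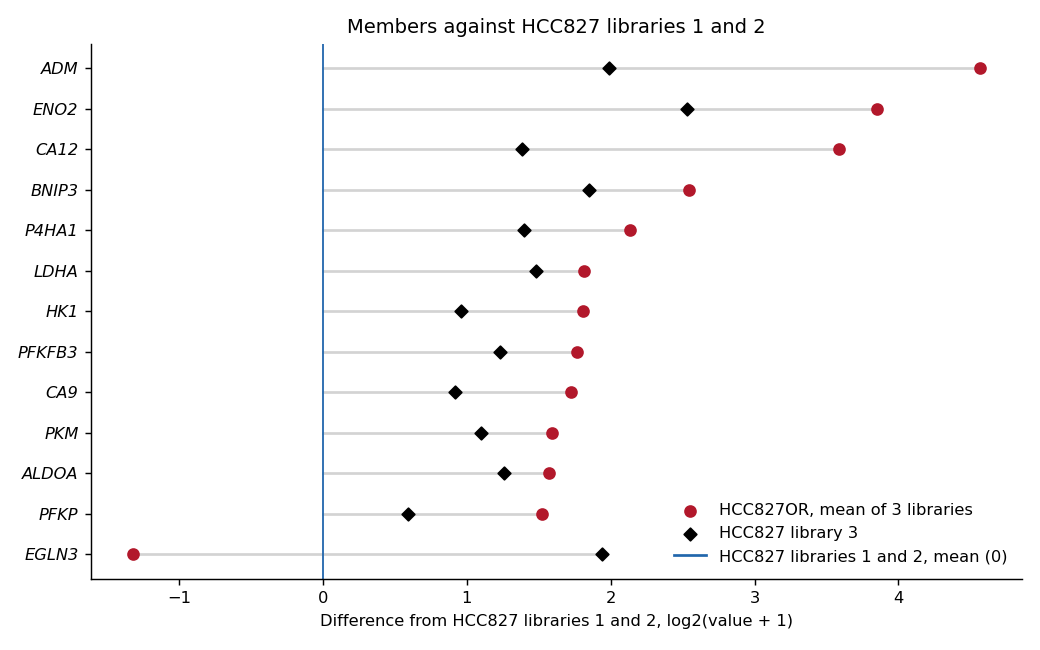
Difference of HCC827OR (red circle, mean of 3 libraries) and of HCC827 library 3 (black diamond) from the mean of HCC827 libraries 1 and 2 (blue line at 0), on the log2(value + 1) scale, for each member. Library 3 lies on the right for all 13 members, at 0.59 to 2.53, and only for EGLN3 does HCC827OR lie on the left, at -1.32.

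Placed on the way from libraries 1 and 2 (0) to HCC827OR (1), library 3 had a median position of 0.66 over the members and 0.03 over all tested genes. A higher value in library 3 gives a positive position in a gene that rose and a negative one in a gene that fell. The median over all tested genes mixes both kinds, and none is given for genes that rose. LDHA stood at 0.81, ALDOA at 0.80, BNIP3 at 0.73, PFKFB3 at 0.70, PKM at 0.69, and ENO2 and P4HA1 at 0.66. HK1 and CA9 stood at 0.53. ADM at 0.44, PFKP at 0.39 and CA12 at 0.39 were nearer to libraries 1 and 2, and EGLN3 stood at -1.47. Glycolytic enzymes thus stood both high and low in this order. Each position rests on 1 library, so neighbours in this order are not told apart. Against library 3 as the only parental library, 12 of 13 members were still higher in HCC827OR and EGLN3 lower (limma, the lone library being assumed to vary like HCC827OR), where 50.1% of all tested genes were called higher and 43.2% lower. The log2 differences then ran from 0.32 for ALDOA and 0.34 for LDHA to 2.58 for ADM and were -3.26 for EGLN3. HCC827OR libraries lay close together, with a coefficient of variation of 1.66% to 3.66% in 11 members, 24.8% in CA9 and 46.8% in EGLN3, both of low value. In HCC827 it was 25.4% to 173%.

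**Figure D3:**
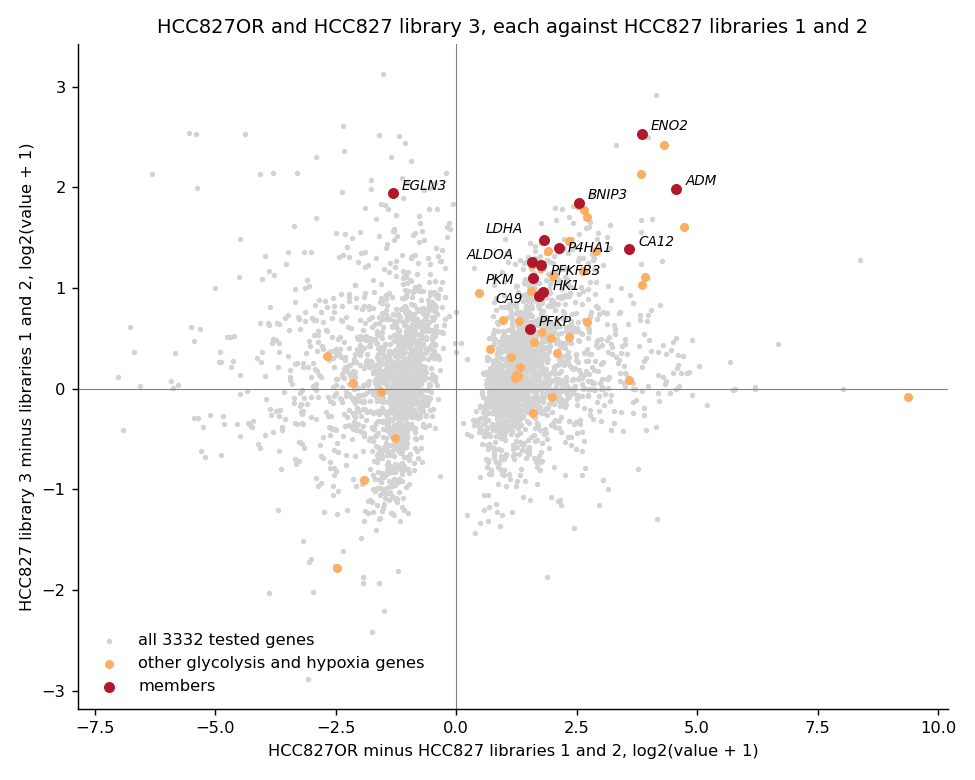
Difference of HCC827OR from HCC827 libraries 1 and 2 (horizontal axis) against that of HCC827 library 3 from the same libraries (vertical axis), both on the log2(value + 1) scale, for 3332 tested genes (grey), other glycolysis and hypoxia genes (orange) and the 13 members (red, named). Both axes share libraries 1 and 2, and the 12 members that rose lie in the upper right while EGLN3 lies in the upper left.

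Other genes of the pathways were taken from lists of 122 names, of which 44 were in the table and 41 were tested. Of these 34 rose, 6 fell and 1, RORA, did not pass, where 52.5% of all tested genes were called higher and 45.0% lower. As for the members, the table holds only genes already called, so these counts and those of the lists below are a description. ARNT2 passed the filter only through its HCC827OR libraries and FBP1 only through its HCC827 libraries, so the direction of each was fixed by the filter. Library 3 was at least 2-fold higher than libraries 1 and 2 in 15 of the 41, against 7.92% of all tested genes, and at least 2-fold lower in 1, PCK2, against 2.43%. The median position of library 3 was 0.34, so that these genes ranged from standing with library 3 to standing apart from it.

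Among glycolytic and gluconeogenic enzymes 2 of 5 tested rose and 3 fell. GAPDH, often used as a reference gene, had 12683, 11964 and 12585 in HCC827OR, against 5397, 4656 and 7967 in HCC827 (log2 difference 1.08, SE 0.250, limma adjusted p = 0.00405). GAPDH has many processed pseudogenes that can share its reads. The lower enzymes were FBP1, PCK2 and PFKFB2. FBP1, the fructose bisphosphatase of gluconeogenesis, was 16.8-fold lower, with 0.277 ± 0.143 in HCC827OR, against 4.66 ± 0.242 in HCC827 (SD, n = 3 each). Its parental values of 4.8, 4.38 and 4.8 did not set library 3 apart. PCK2, the mitochondrial phosphoenolpyruvate carboxykinase, had 9.12, 7.65 and 6.86 in HCC827OR, against 47.32, 48.46 and 13.26 in HCC827, so that library 3 lay near HCC827OR. PFKFB2, the heart-type relative of PFKFB3, had 3.83, 3.21 and 2.92 in HCC827OR against 8.96, 9.91 and 6.44 in HCC827.

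Transporters of glucose and lactate rose in 4 of 4 tested. The glucose transporter SLC2A1 (GLUT1) had 394.39, 381.6 and 389.69 in HCC827OR, against 113.76, 92.65 and 266.23 in HCC827, 2.47-fold higher over all libraries and 3.76-fold without library 3. The lactate exporter SLC16A3 (MCT4) had 521.26, 475.77 and 535.03 in HCC827OR, against 171.46, 168.5 and 400.89 in HCC827, and it did not pass under the median-ratio scaling (limma adjusted p = 0.103, range over the alternatives 6.56e-07 to 0.103). In both transporters library 3 lay between HCC827OR and the other parental libraries, as in LDHA. The lysosomal transporter SLC2A6 and the MCT chaperone BSG also rose, but library 3 lay with the other parental libraries, SLC2A6 having 32.93, 35.89 and 36.14 in HCC827OR against 2.09, 1.88 and 2.16 in HCC827. BSG had 672.32, 644.62 and 660.51 in HCC827OR against 299.77, 262.72 and 302.15 in HCC827. SLC2A3 was under the filter, with 0.39, 0.54 and 0.73 in HCC827OR against 0.08, 0.16 and 0.06 in HCC827.

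At the entry of pyruvate into mitochondria, the carrier subunit MPC1 fell 3.31-fold, with 5.65, 4.24 and 4.28 in HCC827OR against 14.79, 16.74 and 15.37 in HCC827. PDK2, a kinase that inhibits pyruvate dehydrogenase, had 19.84, 22.16 and 20.55 in HCC827OR against 14.72, 6.98 and 16.97 in HCC827. It passed narrowly (log2 difference 0.74, limma adjusted p = 0.0435) and did not pass without any single HCC827OR library (limma adjusted p = 0.0835, 0.109 and 0.0921 without HCC827OR libraries 1, 2 and 3; range over the alternatives 0.00829 to 0.687). In glycogen metabolism 4 of 5 tested genes rose. The glycogen synthase GYS1 and the branching enzyme GBE1 averaged 97.6 ± 3.79 and 98.2 ± 6.29 in HCC827OR, against 21.7 ± 11.6 and 19.4 ± 12.2 in HCC827 (SD, n = 3 each), GBE1 being 5.07-fold higher over all libraries and 7.95-fold without library 3. The glycogen-targeting phosphatase subunits PPP1R3B and PPP1R3C rose too. PPP1R3C had 11.99, 11.53 and 11.75 in HCC827OR against 2.03, 2.44 and 2.06 in HCC827, so library 3 did not stand apart. The brain-type phosphorylase PYGB, which breaks glycogen down and was chosen after its values were seen, fell 3.23-fold, with 61.82, 56.87 and 58.94 in HCC827OR against 235.93, 217.67 and 120.73 in HCC827.

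**Figure D4:**
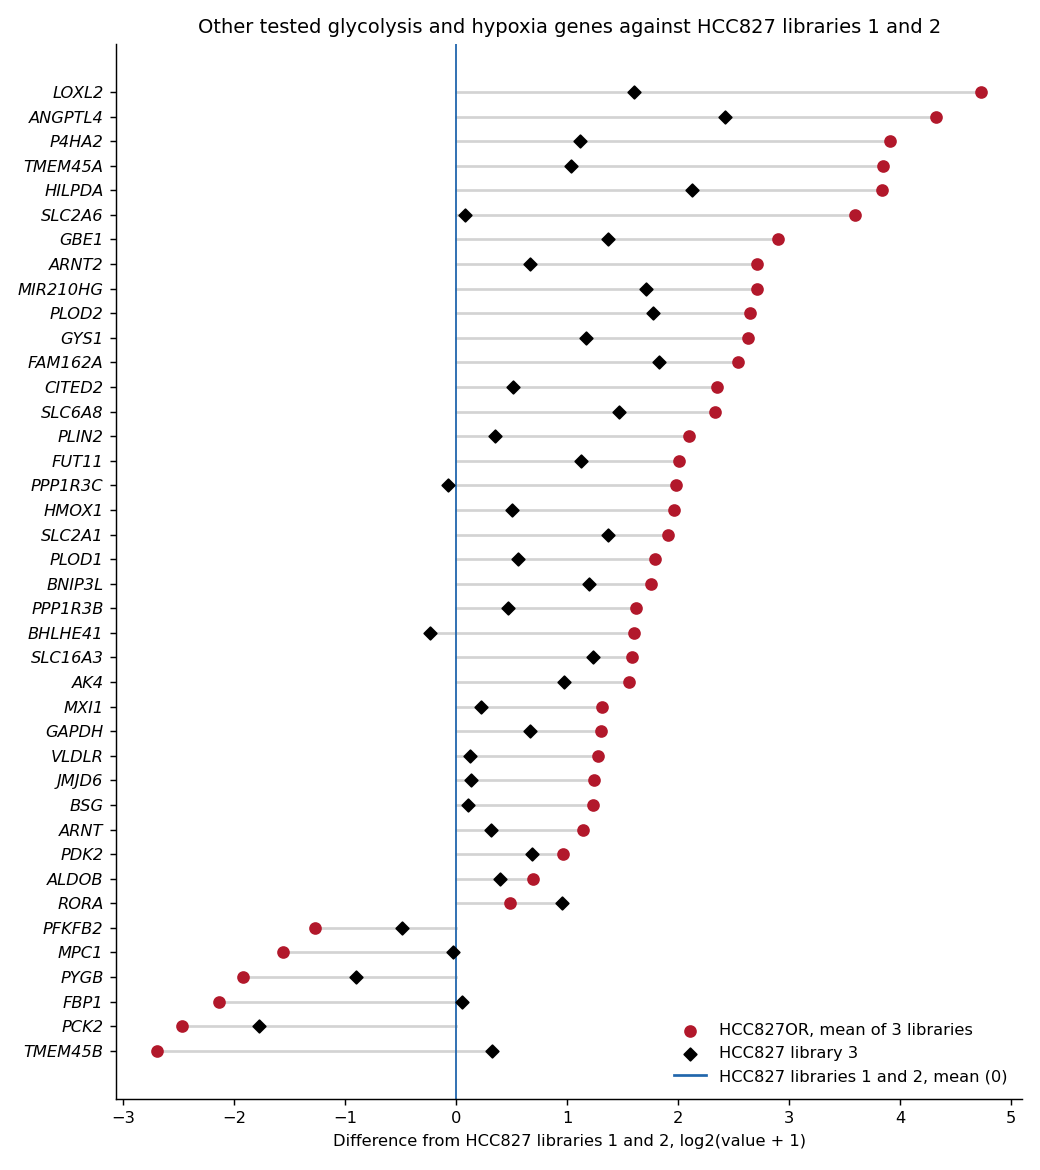
Difference of HCC827OR (red circle, mean of 3 libraries) and of HCC827 library 3 (black diamond) from HCC827 libraries 1 and 2 (blue line at 0), on the log2(value + 1) scale, for the tested genes of the other pathway lists that are reported here. Diamonds reach 2.42 for ANGPTL4 but stay near 0 for SLC2A6 and PPP1R3C, which differed between the lines.

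Of 12 HIF pathway genes 3 were in the table, ARNT, ARNT2 and CITED2, and they were higher in HCC827OR, ARNT2 by way of the filter. ARNT, the constitutive partner of the HIF alpha subunits, had 20.72, 21.24 and 20.09 in HCC827OR against 9.26, 8.45 and 11.23 in HCC827. Its relative ARNT2 had 6.32, 5.51 and 6.12 in HCC827OR against 0.09, 0.05 and 0.69 in HCC827, 21.6-fold higher over all libraries and 85.5-fold without library 3. CITED2, a HIF target that competes with HIF for its coactivators, had 84.82, 77.6 and 82.19 in HCC827OR against 15.63, 14.78 and 22.12 in HCC827. The alpha subunit genes HIF1A and EPAS1 are not analysed here.

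Of 22 other hypoxia-inducible genes tested 20 rose, RORA did not pass and TMEM45B fell, with 4.96, 5.65 and 3.84 in HCC827OR against 36.81, 35.76 and 45.63 in HCC827. In 11 of the 22 library 3 was at least 2-fold above libraries 1 and 2, against 7.92% of all tested genes. HILPDA, a lipid droplet protein, and ANGPTL4, an inhibitor of lipoprotein lipase, were chosen after their values were seen. HILPDA had 199.3, 229.7 and 218.33 in HCC827OR, against 14.17, 14.19 and 65.33 in HCC827. ANGPTL4 had 216.01, 196.25 and 221.83 in HCC827OR, against 10.33, 8.97 and 55.75 in HCC827. Without library 3 HILPDA was 15.2-fold and ANGPTL4 21.9-fold higher in HCC827OR, in place of 6.91-fold and 8.45-fold. Other genes of the list differed between the lines with library 3 near the other parental libraries. The lipid droplet coat gene PLIN2 averaged 182 ± 2.92 in HCC827OR and 45.8 ± 6.91 in HCC827, and the clock-related repressor BHLHE41 25.9 ± 0.549 in HCC827OR and 7.44 ± 1.11 in HCC827 (SD, n = 3 each). NDUFA4L2, a HIF-induced subunit-like gene of the respiratory chain that was under the filter and was chosen after its values were seen, had 0.31, 0.07 and 0.75 in HCC827OR against 3.5, 3.82 and 0.43 in HCC827. RORA, also chosen after its values were seen, had 1.08, 1.07 and 0.76 in HCC827OR against 0.18, 0.68 and 1.73 in HCC827. RORA did not pass (limma adjusted p = 0.589). Without HCC827 library 3 its log2 difference was 0.48 (limma adjusted p = 0.0264), and against library 3 alone it was -0.47 (limma adjusted p = 0.0301; range over the alternatives 0.0264 to 0.808).

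The genes outside the members whose 6 values most resembled the members' mean standardised profile were BNIP3L, PTGS2, CXCL1, AL161431.1 and PLOD2, with Pearson r of 0.9993 to 0.9997 over the 6 libraries. Such values rest on 2 lines and 1 library that stands between them, and they do not rank the genes. BNIP3L, a mitophagy receptor related to BNIP3, had 106.88, 108.84 and 102.79 in HCC827OR, against 31.56, 29.82 and 71.57 in HCC827. The prostaglandin synthase gene PTGS2 had 111.05, 112.47 and 116.34 in HCC827OR, against 5.85, 5.13 and 47.93 in HCC827. The collagen lysyl hydroxylase gene PLOD2 had 394.92, 425.56 and 397.25 in HCC827OR, against 66.88, 61.05 and 221.05 in HCC827. Without library 3 the ratios of HCC827OR to HCC827 were 20.6 for PTGS2, in place of 5.77, and 6.35 for PLOD2, in place of 3.49. Of the members themselves EGLN3 had an r of -0.42 with the profile, and the other 12 had 0.96 or more. The profile is the mean of these same members, and each was correlated with a mean that includes it. High values for the 12 are thus partly built in and are no independent evidence that they move together.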

How the data were processed

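RNA sequencing of 3 HCC827OR and 3 HCC827 libraries was analysed, grouped by sample titles. Per the file headers, the authors deposited for each human Ensembl gene an expression signal per library and per line mean. They also gave fold changes between the lines, their log2 values and p-values. These fold changes are not always the ratios of the mean library values, RORA having 3.34 against a ratio of means of 1.12. The unit and normalization of the signal and the authors' test are not given in the sources used here. The submitters' processing notes name Bowtie 0.12.2 beside a mouse build, mm8, although the gene IDs are human. Every deposited gene had an authors' adjusted p-value below 0.05 and a log2 fold change of at least 1 in size. Depth is unknown, so no interval for counting error is given.

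Genes reaching 1 in 3 or more of the 6 libraries entered limma 3.58.1 (R 4.3.3). It was run on log2(value + 1), trend on, two-sided, with Benjamini-Hochberg adjustment over all 3332 tested genes. Fold changes on this scale understate those of low genes, and linear folds are ratios of means. The test was checked on simulated data. Members and lists were chosen with earlier results of these data known. All members were named. Of each other list up to 4 tested genes with the smallest adjusted p were named, with all transporters and HIF pathway genes in the table and the 5 genes most like the members. Others are stated as chosen after their values were seen. A gene that the rule names is not reported here, though it stays in the counts. Positions are from GENCODE release 29 (GRCh38), promoters from RefSeq (GRCh38.p14, Python 3.11.15). Alternatives covered pseudocount, filter, scaling, trend, replicate block, threshold and leaving out each library. Library 3 as the only parental library was added after seeing the data.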

Additional observations from a re-analysis of the deposited data

How the results depend on the processing

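The count of 12 members higher and EGLN3 lower held under a pseudocount of 0.1 or 0.5, equal-sum scaling, no filter, no trend, a 2-fold threshold and without each library other than HCC827 library 1, where ALDOA did not pass and 11 were higher. With a value of at least 5 required in 3 libraries 11 members were tested and 11 were higher and 0 lower (limma; EGLN3 and CA9 were not tested), and 1999 of 2020 genes passed, 987 of them higher, since fewer genes were tested. Under the median-ratio scaling 9 members were higher and EGLN3 lower. The median log2 difference was then 0.83 in the members and 0.33 over all tested genes, in place of 1.42 and 0.74. The members' median difference of HCC827 library 3 from libraries 1 and 2 was 1.11 with equal-sum scaling, 1.12 with median-ratio scaling and 1.48 with a pseudocount of 0.1 or 0.5. The median position of library 3 was 0.62 with equal-sum and 0.73 with median-ratio scaling. Equal-sum scaling lowered the median log2 difference of all tested genes by 0.16. Leaving out 1 library at a time, the members' median difference between the lines ran from 1.26 to 1.81, the highest without HCC827 library 3. RORA had -0.47 against library 3 as the only parental library. The replicate numbers did not pair the libraries, the correlations of deviations of same-numbered libraries being 0.03, 0.03 and -0.03, and with replicate number as a block 12 members were higher and 1 lower, and 3258 genes were called in place of 3249. Of 180 values of members over 14 alternative settings 176 kept their direction and their side of the threshold, and 4 kept direction only. Unknown depth limits low genes such as CA9.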

Other observations

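Of the 13 members 5, HK1, PFKP, PFKFB3, BNIP3 and P4HA1, lie on chromosome 10, spread from 3066333 to 131982013 over both arms. On chromosome 10 the table's tested genes were called higher in 73 and lower in 46 of 124 (58.9% higher), against 52.5% higher over all tested genes. LDHA and ADM lie on chromosome 11, where 40.5% of tested genes were called higher, and PKM and CA12 on chromosome 15, where 60.7% were.

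The chemokine gene CXCL1, which the likeness to the members' profile singled out, had 1413, 1433 and 1455 in HCC827OR against 217.67, 192.02 and 785.64 in HCC827, a ratio of 3.6 over all libraries and of 7 without HCC827 library 3. The non-coding gene AL161431.1 had 75.03, 73.26 and 76.21 in HCC827OR against 13.39, 12.94 and 43.38 in HCC827, a ratio of 3.22 over all libraries and of 5.68 without library 3. The long non-coding host gene of the hypoxia-induced miR-210, MIR210HG, had 89.93, 86.81 and 86.63 in HCC827OR against 13.33, 11.94 and 43.55 in HCC827, a ratio of 3.83 over all libraries and of 6.95 without library 3, and was chosen after its values were seen.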
